A study of Mus musculus with 9 samples.

Results

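Chemokine receptors that guide myeloid cells were followed in mouse bone marrow cells transduced with the GATA2 variant R396Q, with GATA2 wild type or with an empty vector. The 7 genes are Ccr1, Ccr2, Ccr3, Cxcr2, Cxcr3, Cxcr4 and Cx3cr1, chosen by symbol out of 18797 symbols on the array, and each had 1 transcript cluster (a set of probes summed per gene). The marrow donors of all 3 groups were C57BL/6 females at 8 weeks of age, dosed with 150 mg/kg of 5-fluorouracil 6 days earlier. Per the labels, cells without lineage markers and with Sca and Kit were enriched magnetically, infected on consecutive days with a retrovirus that carries enhanced green fluorescent protein (EGFP) and either GATA2 R396Q, GATA2 wild type or no GATA2 (MIE, the empty vector), and kept in culture for 72 h before the green cells were sorted out. The tissue label reads Blood, while the protocol describes marrow. Each group had 3 arrays (n = 3), and the labels do not state whether these came from separate mice or cultures, so p measures the spread between these samples only. The cells kept their own Gata2 gene in every group, and the labels do not state the species of the transduced GATA2.

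Chemokine receptors are G protein-coupled receptors at the cell surface. When a chemokine binds, they release inhibitory G proteins, which drive directed movement through phosphoinositide 3-kinase and Rac, and arrestins and receptor kinases then switch them off. In marrow, Cxcr4 holds stem cells and young granulocytes in place through its ligand Cxcl12, Cxcr2 moves neutrophils towards the blood, and Ccr2 lets monocytes leave.

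As deposited after RMA, the arrays were alike in overall level, with a median log2 signal of 6.06 to 6.19 and a lower quartile of 4.54 to 4.60. Gata2 itself had log2 signals of 10.65, 10.72 and 10.53 with R396Q and 11.50, 11.24 and 10.94 with wild type, against 9.87, 9.67 and 9.65 with empty vector. It was 1.87-fold higher with R396Q and 2.81-fold higher with wild type than with empty vector (limma adjusted p = 0.0394 and 0.00160), and the call with R396Q was kept in 2 of 9 fits that left out 1 array (adjusted p up to 0.155). The array does not separate the cell's own gene from the transduced one. Between the forms, Gata2 was lower with R396Q by a factor of 1.51, which did not pass over all 9 arrays without a block (adjusted p = 0.0633) and passed with the replicate number as a block (0.0222) and in 1 of 9 fits that left out 1 array (0.0235). The labels call the cells hematopoietic stem cells. Of the 7 measured stem and progenitor markers, 3 lay above the median on all arrays, while Procr, a marker of stem cells, averaged 5.24 with R396Q, 5.04 with wild type and 5.16 with empty vector, below the median of every array.

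Ccr2 fell and Cxcr2 rose with each form of GATA2, and Cx3cr1 fell with R396Q relative to wild type. The other 4 receptors, Ccr1, Ccr3, Cxcr3 and Cxcr4, passed the test in no comparison. Of the 7 receptors, 1 rose and 1 fell with R396Q relative to empty vector, where 1.23% of all 21072 clusters changed, 0.66% upwards and 0.569% downwards (limma, Benjamini-Hochberg adjusted p under 0.05 over all clusters). With wild type relative to empty vector 1 rose and 1 fell, where 8.99% of all clusters changed, 4.64% upwards and 4.35% downwards. With R396Q relative to wild type 1 fell and none rose, where 5.75% changed, 2.67% upwards and 3.08% downwards. With the replicate block 2 fell in that last comparison, where 13.1% of all clusters changed, and the counts of receptors against empty vector were the same as without it, where 3% changed with R396Q and 17.4% with wild type. The median change of the 7 receptors was -0.06, 0.06 and -0.50 on the log2 scale in these comparisons, and that of all clusters was -0.01, -0.01 and 0.00. The comparisons with empty vector share the same control arrays.

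**Figure D1:**
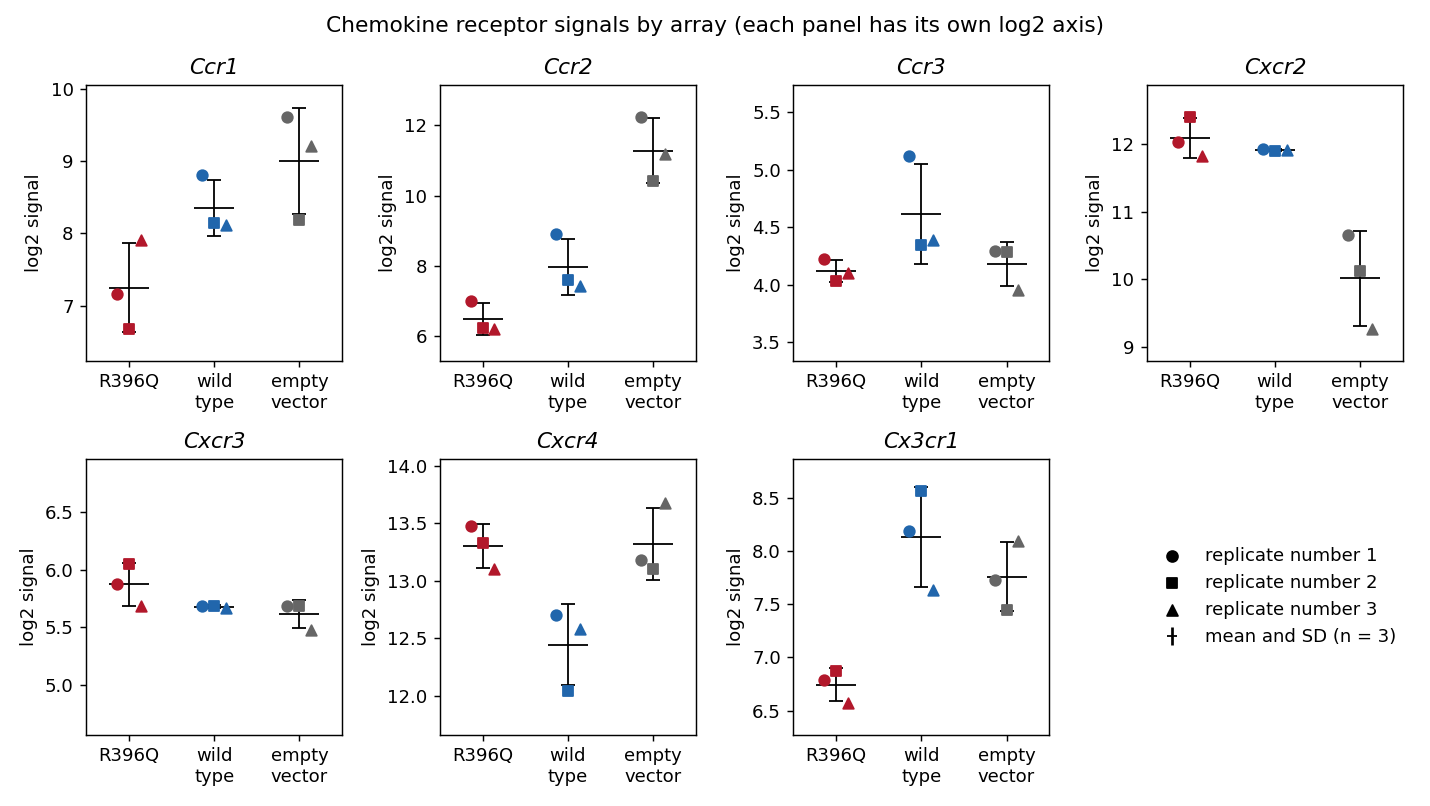
Log2 signal of each receptor on each of the 9 arrays, with R396Q, wild type and empty vector from left to right, marker shape for the replicate number, and bars for the mean and SD of 3 arrays. Ccr2 is highest with empty vector (10.41 to 12.25) and Cxcr2 lowest there (9.26 to 10.65), with no overlap with either form of GATA2.

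Ccr2, the receptor for the monocyte chemoattractants Ccl2, Ccl7 and Ccl12, had log2 signals of 7.01, 6.24 and 6.21 with R396Q and 8.90, 7.60 and 7.43 with wild type, against 12.25, 10.41 and 11.19 with empty vector. All arrays of both GATA2 forms lay below all arrays with empty vector, and all R396Q arrays lay below all wild type arrays. The array with replicate number 1 was the highest in each group. Means were 6.49 ± 0.46 with R396Q, 7.98 ± 0.80 with wild type and 11.28 ± 0.92 with empty vector (SD, n = 3 each), so the R396Q arrays stood between the 51.1 and 57.0 percentiles of their array and the empty vector arrays between the 85.2 and 93.0 percentiles. Ccr2 fell 27.8-fold with R396Q (95% confidence interval 10.9 to 71.1, limma adjusted p = 0.0157) and 9.90-fold with wild type (3.87 to 25.3, adjusted p = 0.0150). These arrays hold bulk RNA, so fewer cells of a type and less RNA per cell cannot be told apart here or in any result below.

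The fall of Ccr2 with R396Q lost its call without any 1 of R396Q 1, 2 or 3 or empty vector 3 (adjusted p from 0.0508 to 0.0796), and the fall with wild type without wild type 2 (0.0513). Both were lost when the 2 groups compared were fitted alone (0.0611 with R396Q and 0.0656 with wild type). Between the forms, Ccr2 was 2.81-fold lower with R396Q (-1.49 on the log2 scale, SE 0.57). That difference passed the test with the replicate number as a block (SE 0.24, adjusted p = 0.0211) and not without it (adjusted p = 0.233). Its size within replicate numbers 1, 2 and 3 was -1.89, -1.36 and -1.22.

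Some monocyte markers fell relative to empty vector, as Ccr2 did. Of 7 measured markers, 2 fell with R396Q and 4 fell with wild type relative to empty vector, and none rose. Their mean log2 signal per array was 6.88 to 7.38 with R396Q and 6.11 to 7.04 with wild type, against 8.18 to 9.85 with empty vector, so the marker list did not overlap between either form and empty vector. F13a1, a coagulation factor subunit made by monocytes, fell with both forms (adjusted p = 0.0315 with R396Q and 0.00881 with wild type), and so did Klf4, a transcription factor of monocytes (0.0189 and 0.00378). With R396Q, F13a1 kept its call only without empty vector 2 (adjusted p up to 0.126), and Klf4 lost it without R396Q 1, 2 or 3 or empty vector 1 (up to 0.0897). None of the 7 markers changed between R396Q and wild type by limma, with or without the block, and 0 had an unadjusted p below 0.05. Csf1r, F13a1, Klf4 and Fcgr1 had means of 5.25 to 5.90 with both forms, below the median of every array. These markers thus had little room to fall further with R396Q. The median change of the 7 markers was -1.95 with R396Q and -2.70 with wild type relative to empty vector, and 0.22 between the forms, where the Ccr2 changes were -4.80, -3.31 and -1.49. The part of these markers in the Ccr2 result was not tested.

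Upstream windows are shown for the 3 receptors that passed the test, because GATA2 binds sites built on the letters GATA. Binding of either form, R396Q included, was not measured here. Each window is the 250 bases before the gene's RefSeq start (build GRCm38.p6), read 5′ to 3′ on the gene's strand, and capitals mark a match on either strand to the spelling AGATAA, to the spelling AGATAG, to the spelling TGATAA or to the spelling TGATAG. The Ccr2 window is chr9:124101933-124102182 on the plus strand, the Cxcr2 window chr1:74153744-74153993 on the plus strand and the Cx3cr1 window chr9:120068297-120068546 on the minus strand.
Ccr2: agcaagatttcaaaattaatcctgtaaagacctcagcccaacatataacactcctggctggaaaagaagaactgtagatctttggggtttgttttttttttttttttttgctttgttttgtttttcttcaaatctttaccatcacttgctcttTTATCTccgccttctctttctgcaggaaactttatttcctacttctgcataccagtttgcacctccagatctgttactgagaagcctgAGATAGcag
Cxcr2: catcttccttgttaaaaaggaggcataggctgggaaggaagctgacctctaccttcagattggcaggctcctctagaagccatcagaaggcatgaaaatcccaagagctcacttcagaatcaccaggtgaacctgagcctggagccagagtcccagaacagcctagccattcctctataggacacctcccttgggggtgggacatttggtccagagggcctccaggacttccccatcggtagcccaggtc
Cx3cr1: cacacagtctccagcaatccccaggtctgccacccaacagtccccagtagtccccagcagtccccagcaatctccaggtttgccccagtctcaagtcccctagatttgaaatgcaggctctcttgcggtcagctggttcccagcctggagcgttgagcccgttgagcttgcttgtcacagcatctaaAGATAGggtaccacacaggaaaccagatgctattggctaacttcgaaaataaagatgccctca

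The Ccr2 window held AGATAA on the other strand, 97 to 92 bases before the start, and AGATAG on the gene's strand, 9 to 4 bases before it. The Cx3cr1 window held AGATAG 63 to 58 bases before the start, and the Cxcr2 window held no match. Ccr3, which passed no test, held AGATAG and AGATAA at 64 to 59 and 30 to 25 bases before its start, and the windows of Ccr1, Cxcr3 and Cxcr4 held none. At least 1 match was present in 3 of the 7 receptor windows and in 26.5% of all 32851 windows of that length in the table. A match is a description of the letters and not a site, and a window without one says nothing of GATA2 there.

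Ccr1, a receptor for Ccl3, Ccl5, Ccl6, Ccl7 and Ccl9 on monocytes and neutrophils, had log2 signals of 7.16, 6.67 and 7.91 with R396Q and 8.80, 8.14 and 8.11 with wild type, against 9.61, 8.19 and 9.20 with empty vector. Every R396Q array lay below every array of the other groups, while wild type and empty vector overlapped. The change with R396Q relative to empty vector was -1.75 (SE 0.45, 95% confidence interval -2.83 to -0.68), which did not pass after adjustment (limma adjusted p = 0.159, and 0.0726 with the block). Relative to wild type it was -1.11 (SE 0.45, adjusted p = 0.268), and wild type differed from empty vector by -0.65 (SE 0.45, adjusted p = 0.469).

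Cx3cr1, the receptor for fractalkine on patrolling monocytes and tissue macrophages, had log2 signals of 6.79, 6.87 and 6.57 with R396Q and 8.19, 8.57 and 7.63 with wild type, against 7.73, 7.45 and 8.10 with empty vector. The R396Q arrays were the lowest 3 of the 9, and the other groups overlapped. Cx3cr1 fell 2.61-fold with R396Q relative to wild type (-1.38 on the log2 scale, SE 0.26, limma adjusted p = 0.0273) and was lower within each of the 3 replicate numbers. The call was lost without any 1 of R396Q 1, 2 or 3, wild type 1 or 2 or empty vector 1 (adjusted p from 0.0568 to 0.0925) and in the fit of these 2 groups alone (0.0712). Relative to empty vector the R396Q mean was 2.02-fold lower (-1.01, SE 0.26, adjusted p = 0.155), and the wild type mean differed by 0.37 (SE 0.26, interval -0.24 to 0.99, adjusted p = 0.467). Of the monocyte receptors, Ccr2 was thus lower with both forms than with empty vector, whereas the Cx3cr1 arrays of wild type and empty vector overlapped.

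**Figure D2:**
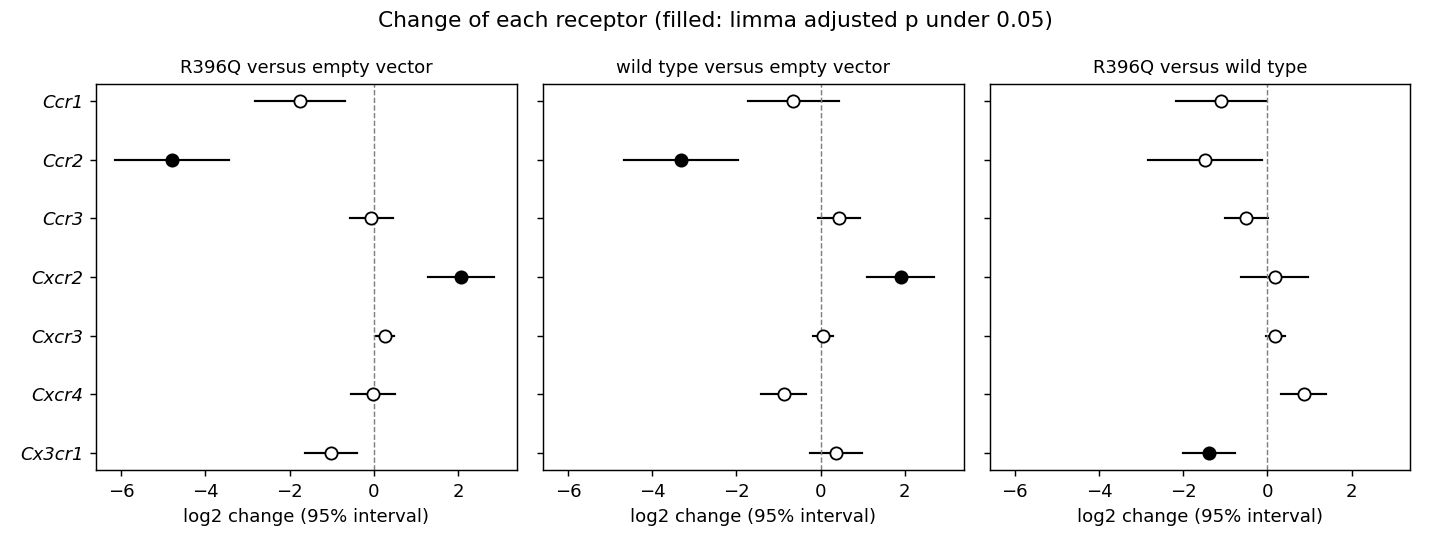
Log2 change of each receptor with its 95% confidence interval, for R396Q versus empty vector, wild type versus empty vector and R396Q versus wild type; filled points passed the limma test. Filled points are Ccr2 and Cxcr2 against empty vector and Cx3cr1 between the forms.

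Cxcr2, the neutrophil receptor for Cxcl1, Cxcl2, Cxcl5 and Ppbp, had log2 signals of 12.03, 12.40 and 11.83 with R396Q and 11.92, 11.90 and 11.92 with wild type, against 10.65, 10.12 and 9.26 with empty vector. Every array of both forms lay above every empty vector array. Means were 12.09 ± 0.29 with R396Q, 11.91 ± 0.01 with wild type and 10.01 ± 0.70 with empty vector (SD, n = 3 each). Cxcr2 rose 4.21-fold with R396Q (95% confidence interval 2.44 to 7.29, limma adjusted p = 0.0432) and 3.74-fold with wild type (2.16 to 6.46, adjusted p = 0.0158). Between the forms it differed by 0.17 on the log2 scale (interval -0.62 to 0.96, adjusted p = 0.885), so a difference of up to 1.95-fold higher or 1.53-fold lower with R396Q lies within the interval.

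The Cxcr2 rise with R396Q was called in 2 of 9 fits that left out 1 array, those without empty vector 1 or 3. It was lost without any 1 of R396Q 1, 2 or 3, wild type 1, 2 or 3 or empty vector 2 (adjusted p up to 0.163), and in the fit of the 2 groups alone (0.176). The rise with wild type was lost without wild type 1 (0.0538) and in the fit of the 2 groups alone (0.0656).

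No neutrophil marker rose relative to empty vector. Of 10 markers, 4 fell and none rose with wild type relative to empty vector (8 fell with the block), and with R396Q none passed the limma test (1 of 10 with an unadjusted p below 0.05; Csf3r fell with the block, adjusted p = 0.0390). The mean log2 signal of the list per array was 9.41 to 13.29 with R396Q and 6.72 to 10.04 with wild type, against 10.65 to 14.15 with empty vector, and the array with replicate number 3 was the lowest in each group. Csf3r, which binds the granulocyte growth factor G-CSF, averaged 9.05 with R396Q and 5.97 with wild type, against 11.27 with empty vector, and its fall with wild type passed the test (limma adjusted p = 0.000621). It was the 1 neutrophil marker that rose with R396Q relative to wild type (8.46-fold, 0.00661), where 7 rose with the block. Cxcr1, a close relative of Cxcr2 that also binds neutrophil chemokines, averaged 4.86 with R396Q, 4.66 with wild type and 4.66 with empty vector and passed no test. Mast cell and basophil markers were higher with wild type, where 6 of 9 rose and 1 fell, while with R396Q none rose (1 with the block) and 1 fell relative to empty vector. The part of these cell types in the Cxcr2 result was not tested.

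**Figure D3:**
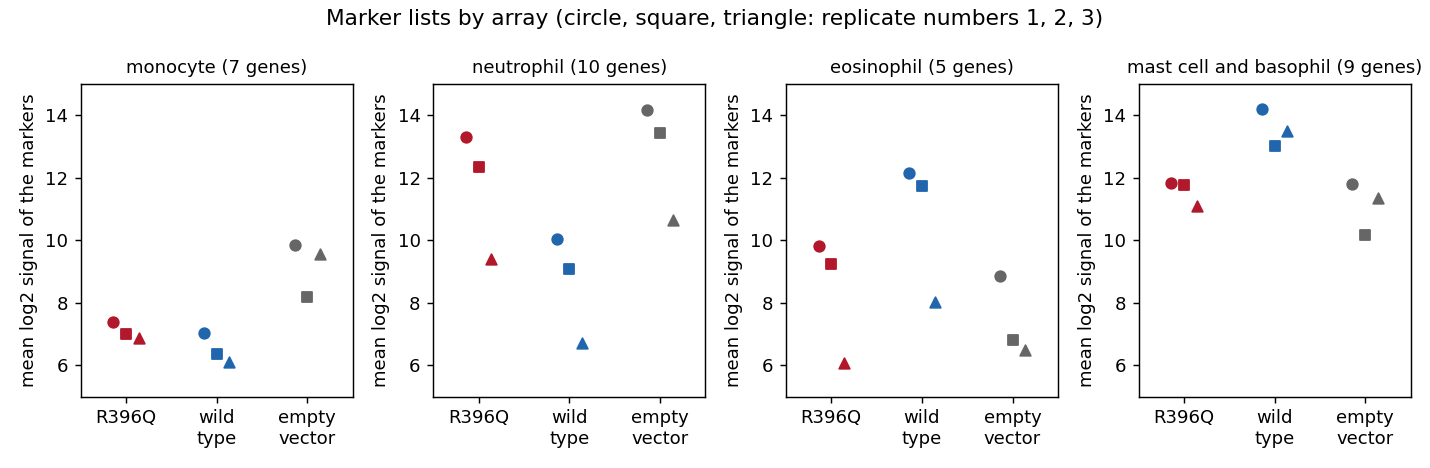
Mean log2 signal of the monocyte, neutrophil, eosinophil, and mast cell and basophil marker lists on each array, with R396Q, wild type and empty vector from left to right. The monocyte list reaches 7.38 with R396Q and 7.04 with wild type and starts at 8.18 with empty vector, while the neutrophil list of wild type lies at 6.72 to 10.04, below every empty vector array.

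Cxcr4, the receptor that retains stem and progenitor cells in marrow, had log2 signals of 13.47, 13.33 and 13.10 with R396Q and 12.70, 12.04 and 12.58 with wild type, against 13.18, 13.10 and 13.68 with empty vector. The wild type arrays were the lowest 3 of the 9, and R396Q and empty vector overlapped. On every array the signal stood above the 92.8 percentile. Cxcr4 was 1.81-fold higher with R396Q than with wild type (0.86, SE 0.22, 95% confidence interval 0.33 to 1.39), which did not pass (limma adjusted p = 0.0821). With wild type it was 1.84-fold lower than with empty vector (-0.88, SE 0.22, adjusted p = 0.0575, and 0.0502 with the block). That difference passed after median subtraction (0.0275), after quantile normalization (0.0270), without the dimmest 30% of clusters (0.0366) and with at least 6 distinct values (0.0331). R396Q and empty vector differed by -0.02 (SE 0.22, interval -0.55 to 0.51, adjusted p = 1.00). Of 7 measured stem and progenitor markers, 1 rose and 3 fell with wild type relative to empty vector (limma, 1 and 4 with the block). With R396Q 1 rose and 1 fell relative to empty vector, and 2 rose and none fell relative to wild type. Their mean log2 signal per array was 7.24 to 7.28 with wild type and 8.26 to 8.52 with empty vector. With R396Q it was 7.97 to 8.51. The part of these markers in the Cxcr4 result was not tested.

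Ccr3 was dim, and Cxcr3 lay just below the median, between the 43.7 and 49.6 percentiles on all 9 arrays. Ccr3, the eotaxin receptor of eosinophils and basophils, had log2 signals of 4.22, 4.03 and 4.10 with R396Q and 5.12, 4.34 and 4.39 with wild type, against 4.29, 4.29 and 3.96 with empty vector. Only wild type 1 lay above the lower quartile of its array, so a signal above background is not shown on the other 8 arrays. Wild type lay above both other groups without overlap, at 0.44 (SE 0.21, limma adjusted p = 0.292) over empty vector, and R396Q differed from wild type by -0.50 (SE 0.21, adjusted p = 0.291). R396Q differed from empty vector by -0.06 (SE 0.21, adjusted p = 0.969). The 5 measured eosinophil markers averaged 6.06 to 9.82 per array with R396Q and 8.03 to 12.14 with wild type, against 6.50 to 8.87 with empty vector, and none passed the limma test without the block (2 were higher with wild type than with empty vector with the block, and 2 were lower with R396Q than with wild type with the block). Of the 5, an unadjusted p below 0.05 was seen for 0 with R396Q and 3 with wild type relative to empty vector, and for 2 between the forms. Cxcr3, the receptor for Cxcl9 and Cxcl10 on T and natural killer cells, stayed between 5.48 and 6.05 on all 9 arrays and held 6 distinct values. Its mean was 5.87 ± 0.18 with R396Q, 5.68 ± 0.01 with wild type and 5.62 ± 0.12 with empty vector (SD, n = 3 each), and it passed no test (adjusted p from 0.369 to 0.773). The mean log2 signal of 8 measured T and natural killer cell markers per array was 6.05 to 6.33 with R396Q and 5.82 to 6.07 with wild type, against 5.83 to 6.07 with empty vector. Of the T cell receptor subunits, Cd3e averaged 4.26 with R396Q, 4.12 with wild type and 4.17 with empty vector, and it was the 1 marker of the 8 below the lower quartile on every array. Cd3d averaged 4.98, 5.04 and 5.07 and Cd3g 5.11, 5.13 and 5.02 in that order of groups, above the lower quartile on every array and below the median. The 1 marker above the median on every array was Nkg7, a granule protein of killer cells, which averaged 14.84 with R396Q, 13.45 with wild type and 13.63 with empty vector. It was also the 1 marker that passed without the block, with a rise with R396Q relative to wild type (limma adjusted p = 0.0230) that was kept in 4 of 9 fits that left out 1 array.

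Arrays of the groups did not overlap for 4 of the 7 receptors between R396Q and empty vector, 1 higher and 3 lower, against 14.1% of all clusters, 6.98% higher and 7.1% lower. Between wild type and empty vector it was 4 of 7, 2 higher and 2 lower, against 22.6% of all clusters, 10.8% higher and 11.8% lower. Between R396Q and wild type it was 5 of 7, 1 higher and 4 lower, against 20.6%, 11% higher and 9.59% lower. Ccr3, not shown above background on 8 arrays, is 1 of the 4 lower receptors here and 1 of the 2 higher ones between wild type and empty vector. Its change is also the median of -0.50 given above for the 7 receptors between R396Q and wild type.

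Ccr1, Ccr3 and Ccr2 lie in a row of chemokine receptor genes on mouse chromosome 9, and the genes beside them were chosen by position alone. The 8 measured protein-coding neighbours were Slc6a20a, Lztfl1, Ccr9, Cxcr6, Xcr1, Ccr1l1, Nlrp4g and Ppp2r3d. None changed in any of the 3 comparisons in limma, where 1 of the 8 had an unadjusted p below 0.05 with R396Q and 2 with wild type relative to empty vector, and 1 between the forms. Their changes ran from -0.46 to 0.10 with R396Q and from -0.64 to 0.24 with wild type relative to empty vector. Cxcr6, a receptor of T and natural killer cells, averaged 4.77 with R396Q and 4.58 with wild type, against 5.23 with empty vector, and its differences from empty vector passed with the block alone (limma adjusted p = 0.0420 with R396Q and 0.00522 with wild type). Xcr1, Nlrp4g and Ccr1l1 had means of 3.58 to 4.47 in all groups, below the lower quartile of the arrays, and Ccr9 had means of 4.76 to 4.77, so these genes could hardly have shown a fall. Ccr1, in the same row, differed by -1.75 with R396Q from empty vector without passing the test.

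**Figure D4:**
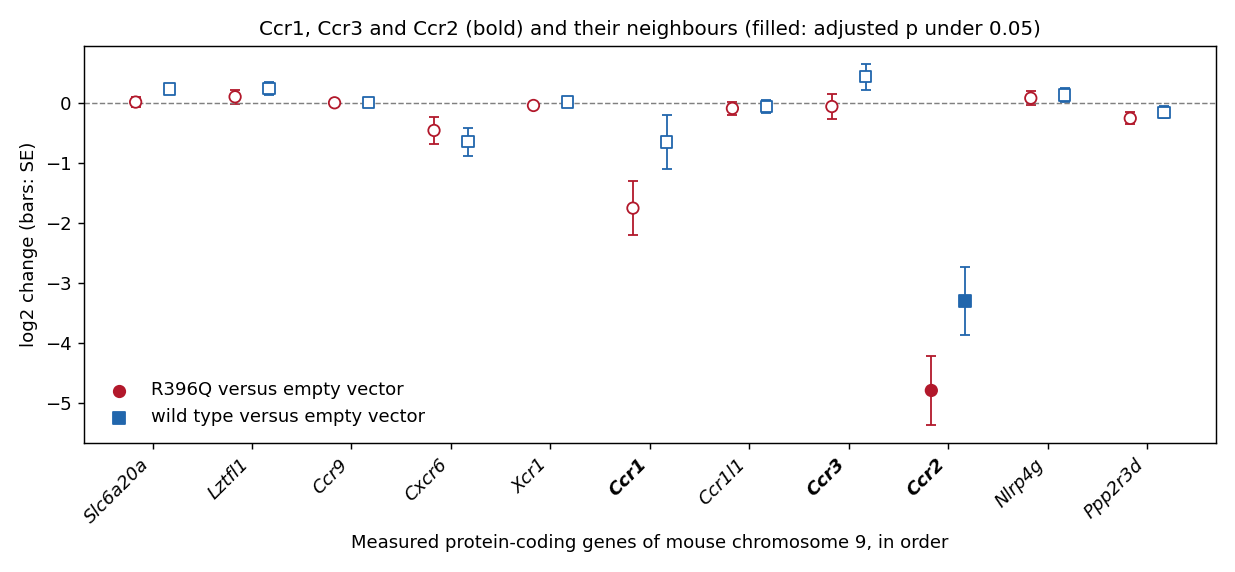
Log2 change relative to empty vector, with SE, for R396Q (circles) and wild type (squares) in the measured protein-coding genes around Ccr1, Ccr3 and Ccr2 on chromosome 9, in gene order. Filled points passed the limma test, and these are the points of Ccr2 alone (-4.80 with R396Q and -3.31 with wild type).

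Among the other chemokine receptors, 15 of 18 listed were measured, and 5 of these stayed below the lower quartile on all arrays. Only Ccr10, a skin-homing receptor of lymphocytes, passed a test, with a 1.39-fold fall with wild type (log2 means 6.15 with wild type and 6.63 with empty vector, SE 0.07, limma adjusted p = 0.00663). With R396Q none of the 15 passed relative to empty vector or wild type (unadjusted p below 0.05 for 3 and 1 of them). With the block 1 rose and 2 fell with wild type, and 2 fell with R396Q, relative to empty vector. Of all clusters, 17.4% changed with wild type and 3% with R396Q in that fit, and 8.99% with wild type without the block. The median change of the list was -0.02 with R396Q and 0.00 with wild type relative to empty vector. Ackr2 and Ackr3 lay in clusters annotated with several names and were left out.

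Several ligands of the 7 receptors changed. Of 23 chemokine ligands, 1 fell with R396Q relative to empty vector, 5 rose and 1 fell with wild type relative to empty vector (7 and 3 with the block), and 4 fell with R396Q relative to wild type. Ccl24, an eotaxin that binds Ccr3, had log2 signals of 5.64, 5.57 and 5.70 with R396Q and 6.18, 5.34 and 6.12 with wild type, against 9.10, 10.02 and 8.17 with empty vector. It fell by 3.46 on the log2 scale with R396Q (limma adjusted p = 0.0197) and 9.31-fold with wild type (0.00710), and the call with R396Q was lost without any 1 of R396Q 1, 2 or 3, wild type 3 or empty vector 1 (up to 0.0897) and in the fit of the 2 groups alone.

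Ccl6, a ligand of Ccr1, rose 6.08-fold with wild type (log2 means 14.84 with wild type and 12.23 with empty vector, adjusted p = 0.00972), a call kept in all 9 fits that left out 1 array and lost in the fit of the 2 groups alone. Ppbp, a platelet chemokine that binds Cxcr2, averaged 7.91 with R396Q and 13.45 with wild type, against 8.67 with empty vector. It rose 27.4-fold with wild type relative to empty vector (adjusted p = 0.0299) and fell 46.6-fold with R396Q relative to wild type (0.0235). Pf4, the other platelet chemokine listed, averaged 12.78 with R396Q and 15.84 with wild type, against 13.03 with empty vector. It rose by 2.81 on the log2 scale with wild type relative to empty vector (limma adjusted p = 0.0175) and fell 8.35-fold with R396Q relative to wild type (0.0168). These platelet chemokine calls were each lost without any 1 wild type array (adjusted p up to 0.0958), and some also without R396Q 2 or 3 or empty vector 2 or 3. Megakaryocyte markers moved alongside: 4 of 4 measured, Pf4 itself among them, rose with wild type relative to empty vector (median change 2.78) and 4 of 4 fell with R396Q relative to wild type (median change -2.77), while none passed with R396Q relative to empty vector (limma, 1 with an unadjusted p below 0.05, and Itga2b rose with the block). Their mean log2 signal per array was 8.64 to 9.31 with R396Q and 11.44 to 11.72 with wild type, against 8.25 to 9.07 with empty vector, and their part in the platelet chemokine results was not tested. Ccl4, an inflammatory chemokine made by macrophages, rose 2.41-fold with wild type relative to empty vector (0.0236) and fell 2.33-fold with R396Q relative to wild type (0.0363). Cxcl5, a Cxcr2 ligand, rose 1.78-fold with wild type relative to empty vector (0.0259) and fell 1.86-fold with R396Q relative to wild type (0.0267). Of the 9 fits that left out 1 array, the Ccl4 calls were kept in 4 and 2 and the Cxcl5 calls in 4 and 3, in that order (adjusted p up to 0.128).

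Ccl3, a ligand of Ccr1, averaged 10.40 with R396Q, 13.59 with wild type and 10.55 with empty vector, and its differences from wild type passed only with the block (adjusted p = 0.0195 for R396Q with wild type and 0.0175 for wild type with empty vector). The Ccr2 ligands Ccl2, Ccl7 and Ccl12 did not pass, except Ccl12 with the block for wild type relative to empty vector (adjusted p = 0.0390). Their means with R396Q were 8.24, 5.68 and 4.93, those with wild type 8.03, 5.64 and 4.90, and those with empty vector 9.38, 6.93 and 5.84. Cxcl12, the ligand of Cxcr4, averaged 5.23 with R396Q, 5.22 with wild type and 5.09 with empty vector, and Cx3cl1, the ligand of Cx3cr1, averaged 4.83, 5.14 and 4.82 in that order of groups. Neither passed a test.

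**Figure D5:**
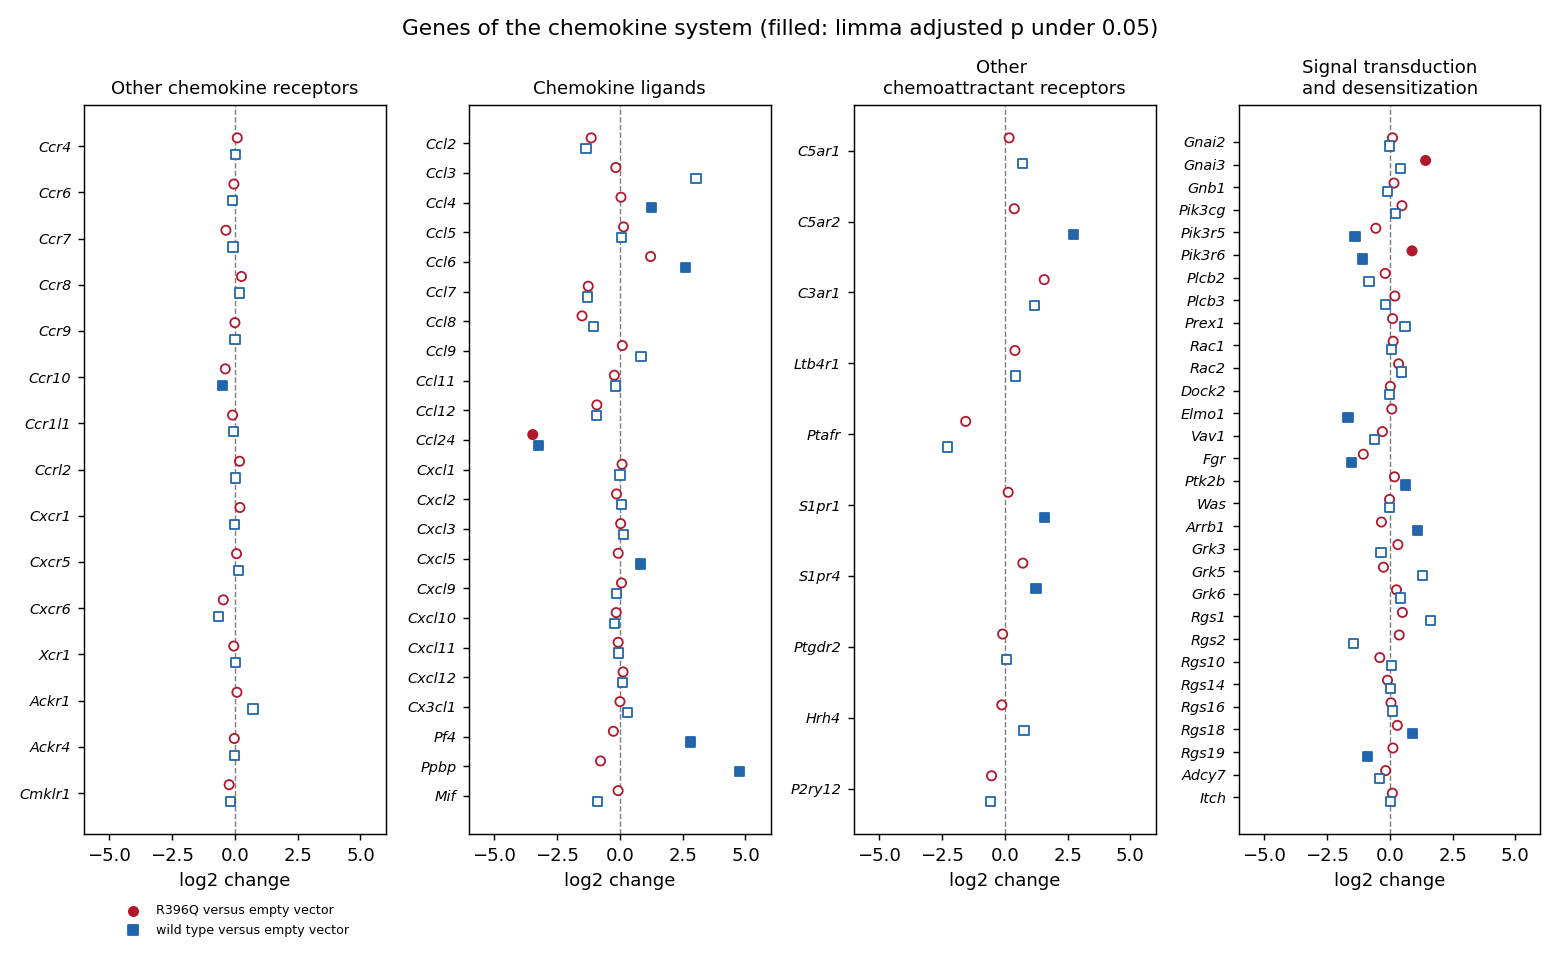
Log2 change relative to empty vector with R396Q (circles) and wild type (squares) for the other chemokine receptors, the ligands, other chemoattractant receptors and the signalling genes; filled symbols passed the limma test. The other chemokine receptors stay near 0, while the ligands reach 4.78 with wild type at Ppbp and -3.46 with R396Q at Ccl24.

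Of 30 measured genes that carry or end the receptor signal, 2 rose and none fell with R396Q relative to empty vector, 3 rose and 5 fell with wild type relative to empty vector, and 5 rose and 2 fell with R396Q relative to wild type (8 and 4 with the block). Gnai3, an inhibitory G protein subunit released by these receptors, had log2 signals between 12.94 and 13.06 with R396Q and between 11.99 and 12.03 with wild type, against 11.36 to 11.95 with empty vector. It rose 2.69-fold with R396Q relative to empty vector (limma adjusted p = 0.00940, lost in the fit of the 2 groups alone) and 1.99-fold relative to wild type (0.0118). Pik3r6, a regulatory subunit of the phosphoinositide 3-kinase that G proteins activate, had its highest mean with R396Q at 8.37, and its means were 6.41 with wild type and 7.48 with empty vector. It rose 3.88-fold with R396Q relative to wild type (adjusted p = 0.000821) and fell 2.10-fold with wild type relative to empty vector (0.00522), and both calls were kept without any 1 array. Its rise with R396Q relative to empty vector (1.85-fold, 0.0392) was kept in 1 of 9 fits that left out 1 array, the one without R396Q 3 (up to 0.155), and was lost in the fit of the 2 groups alone.

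Elmo1, which activates Rac together with Dock2, rose 3.33-fold with R396Q relative to wild type (limma adjusted p = 0.00413) and fell 3.15-fold with wild type relative to empty vector (0.00362). Rgs19, a regulator that ends G protein signals, rose 2.03-fold with R396Q relative to wild type (0.00202) and fell 1.85-fold with wild type relative to empty vector (0.00229). Arrb1, the arrestin that uncouples such receptors, fell 2.68-fold with R396Q relative to wild type (0.00210) and rose 2.14-fold with wild type relative to empty vector (0.00369). These calls of Elmo1, Rgs19 and Arrb1 were kept in all 9 fits that left out 1 array. Of 10 measured receptors for other chemoattractants, none passed with R396Q relative to empty vector (limma, 2 of 10 with an unadjusted p below 0.05, and 1 fell with the block), 3 rose with wild type (4 rose and 1 fell with the block), and 2 fell with R396Q relative to wild type. C5ar2, a receptor for complement C5a, averaged 7.56 with R396Q and 9.93 with wild type, against 7.18 with empty vector, and rose 6.73-fold with wild type (adjusted p = 0.00733). S1pr1, the sphingosine 1-phosphate receptor that lets cells leave tissues, averaged 6.31 with R396Q and 7.74 with wild type, against 6.17 with empty vector, and rose 2.97-fold with wild type (0.00866). Relative to wild type, C5ar2 and S1pr1 fell 5.17-fold and 2.70-fold with R396Q, calls lost for C5ar2 without R396Q 1 or 3 or wild type 2 and for S1pr1 without R396Q 2 or 3 or wild type 1 or 3 (adjusted p up to 0.0624). S1pr4, a relative of S1pr1 on blood cells, averaged 9.32 with R396Q and 9.84 with wild type, against 8.60 with empty vector, and rose 2.36-fold with wild type (0.0199), a call lost without wild type 1 or empty vector 2 or 3.

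Genes with the most similar profile were named for the 4 receptors whose group means spanned over 1 log2 unit. Likeness was the root mean square distance between profiles over the 9 arrays, each centred on its own mean, among 17000 symbols, and with so many symbols some close profile is to be found for most genes. For Ccr2, which itself varied by 2.10 around its mean on this measure, the nearest were Ms4a6d at 0.71, the macrophage mannose receptor Mrc1 at 0.81 and F13a1 at 0.85. Each of these 3 differed by at most 0.13 between R396Q and wild type on the log2 scale, and none of those differences passed the test. F13a1 and Mrc1 had means of 5.49 to 6.29 with both forms, near or below the array median, so they had little room to fall further. For Cxcr2 (1.01 around its mean) they were Ctla2a at 0.33, Gch1, the first enzyme of tetrahydrobiopterin synthesis, at 0.37, and the membrane fusion protein Stx3 at 0.41. For Ccr1 (0.87) they were Rgl1 at 0.37, the receptor gene Lilra6 at 0.37 and the inhibitory receptor Pirb at 0.38. For Cx3cr1 (0.65) they were Asap1 at 0.31, Mob3b at 0.33 and Pxmp2 at 0.34.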

How the data were processed

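Expression was measured on 9 arrays, 3 per group, 1 column per array, and 0 columns were left out. Per the submitters' processing notes, RMA and Affymetrix Expression Console were used, and the deposited values, from their range, are log2 signals. The version, the genome build and the detection limit are not given in the sources used here. RMA compresses folds of dim genes. Per the labels, the array type was Mouse Exon 1.0 ST, whereas the deposited cluster names have another form. The number of arrays limits the precision.

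Of 21072 clusters, 18992 had 1 symbol, 1390 several and 690 none (418 symbols were brought up to date through the gene table). For a symbol with several clusters the highest mean was used. limma 3.58.1 in R 4.3.3 fitted 1 mean per group over all 9 arrays without filter (2-sided, empirical Bayes, Benjamini-Hochberg over all clusters, threshold 0.05). It was tested on simulated data whose arrays varied independently, so that test does not cover deviations shared by arrays of 1 replicate number. Arrays sharing a replicate number deviated together (r of 0.451 to 0.693 in 9 pairs, and -0.537 to -0.0900 in 18 others), so the number pairs the samples in the block fit. The labels do not say what it marks. "Without any 1 array" means that a fit left that array out.

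The members, lists and rules were chosen with earlier results of these data known. Named genes were the 7 receptors, Gata2, other chemokine receptors that passed, up to 4 called genes per list and comparison by p, the 3 nearest profiles and chromosome neighbours. Other genes with values (Ccl3, Ccl2, Ccl7, Ccl12, Cxcl12, Cx3cl1, Cxcr1, Cxcr6 and markers) were chosen for their role or after their values were seen. Promoter sequences are from RefSeq, GRCm38.p6, and matched 7 of 7 receptors.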

Additional observations from a re-analysis of the deposited data

How the results depend on the processing

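The alternatives were the replicate block, a fit of the 2 groups compared, trend and robust options, median subtraction, quantile normalization, no dimmest 30%, at least 6 distinct values, averaging clusters of one symbol, and omitting each array. Of the values of single receptors under them, 323 kept their side of the threshold, 24 lost a call and 7 gained one, and none of the called values changed sign. Clusters changed numbered 259 for R396Q with empty vector, 1894 for wild type with empty vector and 1211 for R396Q with wild type. With the replicate block they numbered 632, 3667 and 2750, with the 2 groups alone 94, 1026 and 772, and without 1 array 85 to 304, 1285 to 1724 and 650 to 1153, in the same order. Receptors changed numbered 2, 2 and 1; without 1 array they numbered 0 to 2, 1 to 2 and 0 to 1, and with the 2 groups alone 0, 0 and 0, a fit with fewer samples. For R396Q with wild type they numbered 2 with the replicate block (Ccr2 and Cx3cr1), 2 after median subtraction and 2 with at least 6 distinct values (Cxcr4 and Cx3cr1 in both, Cxcr4 adjusted p = 0.0353 and 0.0473). The replicate block changed no other call of a receptor. The causes were not tested. The files give no detection limit, so dim receptors such as Ccr3 carry little information.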
